A study of Homo sapiens with 2 samples.

Results

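R-loops are structures in which nascent RNA pairs with its DNA template and leaves the other DNA strand single. The genes described here are 9 that encode enzymes or complex subunits known to remove R-loops or to limit their formation, RNASEH1, RNASEH2A, RNASEH2B, RNASEH2C, DHX9, DDX5, AQR, THOC1 and THOC2. They were taken by name from the 33538 genes of the count matrices of 2 Ewing sarcoma cell lines, CHLA9 and TC71, and all 9 were present in both matrices. Ewing sarcoma is a tumour of bone and soft tissue driven by a fusion of EWSR1 with an ETS gene, usually FLI1. The study placed it among developmental cell states with bulk transcriptomes. The study also compared R-loop sites between normal cell types and tested FEN1 and Fanconi anemia genes in Ewing sarcoma cells. From this it proposes that stable EWSR1-FLI1 expression in primary tissue probably needs factors that clear R-loops and limit replication stress. It profiled Ewing sarcoma lines by droplet 3′ single-cell RNA sequencing and merged them with published xenograft cells to look for subpopulations. Each line was represented by 1 library of untreated cells. CHLA9 was grown in IMDM with 20% heat-inactivated fetal bovine serum and insulin, transferrin and selenite, and TC71 in RPMI-1640 with 10% serum. CHLA9 was also sequenced a further time on another instrument, so line, medium and sequencing cannot be told apart.

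RNase H1 and RNase H2 cut the RNA strand of an RNA:DNA hybrid. RNase H2 consists of a catalytic subunit, RNASEH2A, and the accessory subunits RNASEH2B and RNASEH2C, and it also removes single ribonucleotides left in DNA after replication. DHX9, DDX5 and AQR are helicases that can open hybrids, and THOC1 and THOC2 belong to the THO complex, which packages nascent transcripts for export and so keeps them away from the template.

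A cell was kept if it held 5000 or more unique molecular identifiers (UMIs, 1 for each captured RNA molecule) from 2000 or more genes, with no more than 15% of UMIs mitochondrial. This left 4524 of 5077 CHLA9 barcodes with a median of 34656 UMIs, and 1729 of 8468 TC71 barcodes with a median of 33370. Of all barcodes 16 occurred in both libraries, and of the kept cells 3. All 10 Ewing sarcoma markers examined were at 7.83 UMIs per 1000000 (CPM) or more in both lines, from KCNAB3 in TC71 to CCND1 at 2510 CPM in CHLA9. Markers of other cells (PTPRC, CD3E, PECAM1, EPCAM, ALB, HBB) were at or below 1.25 CPM, with CD3E and HBB at 0 in both lines and PECAM1 at 0 in TC71, where a count of 0 allows up to 3 UMIs. A level below is the summed UMIs of a gene per 1000000 UMIs of the kept cells, with an exact 95% Poisson interval. One library per line gives no replicate error, so no test was made, and the intervals cover counting error only.

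The 9 genes spanned a wide range of levels and kept nearly the same order in both lines. DDX5 was the highest, at 806 CPM (802 to 810.3) in CHLA9 and 477 (471 to 482) in TC71, and ranked 161 and 270 from the top among all genes. DHX9, THOC2 and RNASEH2C followed in that order in both lines, and RNASEH2A was the lowest. The 95% intervals of neighbours in this order did not overlap in either line. Positions changed in 2 places: RNASEH2B stood above RNASEH1 and THOC1 above AQR in CHLA9, and both pairs stood the other way round in TC71. The libraries count 1 tag near the 3′ end of each molecule, so levels of different genes were compared without a correction for transcript length, as tags captured and not as absolute molecules.

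**Figure D1:**
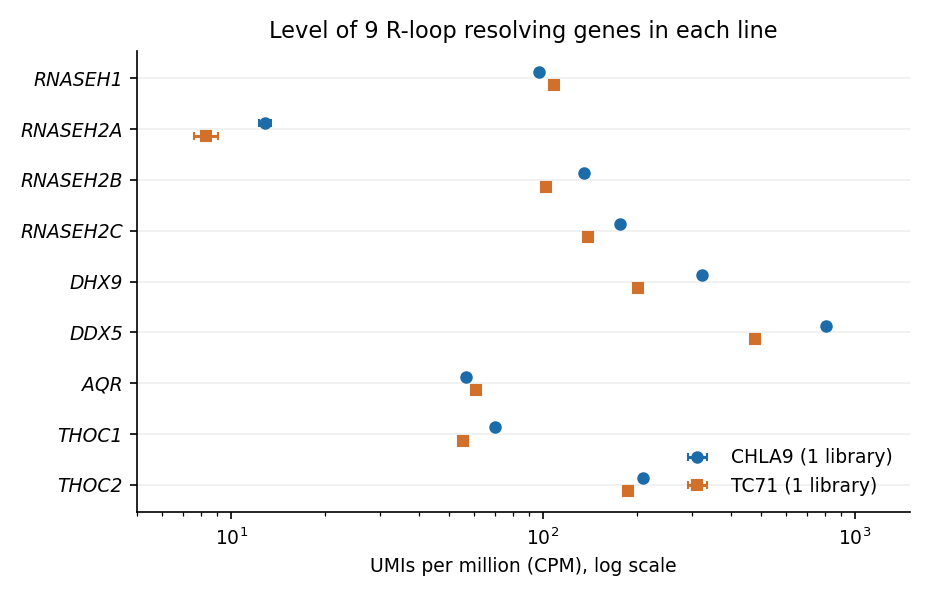
Level of each of the 9 genes in CHLA9 (blue circles) and TC71 (orange squares), in CPM on a log axis. Bars are exact 95% Poisson intervals, which are narrower than the symbols for most genes. DDX5 lies furthest right in both lines and RNASEH2A furthest left, at 12.8 and 8.29 CPM.

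Between the lines, 3 of the 9 genes differed by at least 1.5-fold with intervals apart, DDX5, DHX9 and RNASEH2A, and each was higher in CHLA9. Such a difference was common: of the 10774 genes at 5 CPM or more in either line, 32.0% were higher in CHLA9 by this rule and 17.7% were higher in TC71, where none of the 9 passed. The median log2 difference over all these genes with UMIs in both lines was 0.21 in favour of CHLA9, and that of the 9 genes was 0.34. In size, regardless of direction, the 9 genes had a median log2 difference of 0.34, against 0.58 over all genes. When the lines were rescaled so that the median gene did not differ, none of the 9 passed 1.5-fold: DDX5 came to a log2 difference of 0.55, DHX9 to 0.47 and RNASEH2A to 0.42. The share of all passing genes that were higher in CHLA9 then moved from 64.3% to 49.7%. The excess in CHLA9 of these 3 genes therefore exceeded that of the median gene by less than 1.5-fold.

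**Figure D2:**
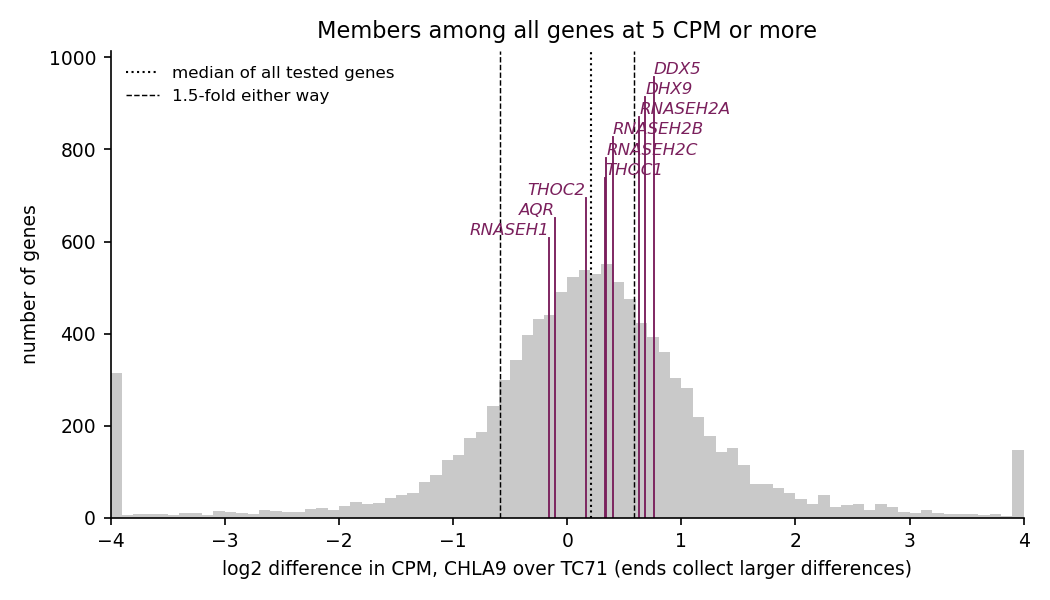
Histogram (grey) of the log2 difference in CPM between CHLA9 and TC71 for all genes at 5 CPM or more in either line, with the end bars collecting larger differences. Purple lines mark the 9 genes, the dotted line the median gene at 0.21 and the dashed lines 1.5-fold either way; the 9 genes lie between -0.16 (RNASEH1) and 0.76 (DDX5).

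RNASEH1 (ENSG00000171865, chr2:3541430-3558333, minus strand, GRCh38) encodes the monomeric RNase H of the nucleus and mitochondria. It was at 96.8 CPM (95.4 to 98.3; 16943 UMIs) in CHLA9 and 108 (106 to 111; 6316 UMIs) in TC71. The log2 difference of CHLA9 over TC71 was -0.16 (-0.20 to -0.12), so RNASEH1 was 1 of 2 genes of the 9 that were lower in CHLA9, the other being AQR. Each cell was assigned to G1, S or G2M from published lists of S and G2M genes, none of which are among the 9. RNASEH1 was at 95.3, 99.9 and 94.8 CPM in G1, S and G2M of CHLA9 and at 102, 115 and 103 CPM in TC71. Its highest level was thus in S in both lines, by a small margin. S over G1 on the log2 scale was 0.07 (0.01 to 0.13) in CHLA9 and 0.17 (0.05 to 0.29) in TC71. In CHLA9 the intervals of the G1 and S levels overlapped. For cells with the same phase in all scorings compared, S over G1 was 0.07 (-0.002 to 0.14) in CHLA9. In TC71 it was 0.15 (-0.01 to 0.32). A difference between S and G1 was therefore not detectable in those cells, which were fewer. Between G1 and G2M no difference was detectable at this depth in either line. FAM92A had the most similar course over 8 bins of the cycle (mean r 0.92).

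The catalytic subunit of RNase H2, RNASEH2A (ENSG00000104889, chr19:12806584-12813640, plus strand), was the member most tied to a phase in CHLA9. It was at 12.8 CPM (12.3 to 13.4; 2246 UMIs) in CHLA9 and 8.29 (7.57 to 9.07; 484 UMIs) in TC71, 1.55-fold higher in CHLA9. In CHLA9 it was at 9.54 CPM (8.50 to 10.7) in G1, 17.6 (16.6 to 18.7) in S and 10.1 (9.40 to 10.8) in G2M. The S level was apart from both others, 1.85-fold above G1 (log2 0.89, 0.70 to 1.07) and, as G2M over S, at a log2 difference of -0.80 (-0.94 to -0.67). In TC71 the levels were 8.45 CPM (6.35 to 11.0) in G1, from 54 UMIs, 9.60 (8.48 to 10.8) in S and 6.80 (5.81 to 7.91) in G2M. Here S over G1 was 0.18 (-0.24 to 0.63) on the log2 scale, so no difference was detectable at this depth, and G2M over S was -0.50 (-0.79 to -0.21), apart but short of 1.5-fold. Whether the S to G1 difference is smaller in TC71 was not tested, since each line had 1 library. When cells that had the same phase in 4 scorings were used alone, S over G1 came to 0.97 in CHLA9 and 0.41 (-0.22 to 1.09) in TC71, the highest values of 11 alternatives. Over all of these it ran from 0.75 to 0.97 in CHLA9 and from -0.04 to 0.41 in TC71, where its sign was thus not settled.

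No other member differed by 1.5-fold between any pair of phases, in either line. Of all genes at 5 CPM or more in either phase of CHLA9, 5.72% were higher in S than in G1 by the same rule, where 1 of the 9 passed (RNASEH2A), and 2.96% higher in S than in G2M, where again RNASEH2A alone passed. For the other directions in CHLA9, in each of which 0 of the 9 passed, the share of all genes was 1.49% for G1 over S, 5.77% for G2M over G1, 2.34% for G1 over G2M and 3.36% for G2M over S. In TC71 0 of the 9 passed in any direction, with 2.06% of all genes higher in S than in G1, 0.674% in G1 than in S, 6.43% in G2M than in G1, 0.705% in G1 than in G2M, 3.59% in G2M than in S and 0.846% in S than in G2M. The phase calls were set beside 7 known cycle genes outside the scoring lists. Of 4 S-phase genes (MCM3, MCM7, DUT and TK1), 3 were past 1.5-fold in S over G1 in CHLA9 and 2 in TC71, MCM3, a subunit of the replicative helicase, by 0.92 and 0.64. Of 3 G2M genes (CCNB1, PLK1 and PTTG1), 3 were past 1.5-fold in G2M over S in CHLA9 and 2 in TC71, where PTTG1, the securin, differed by 0.07. CCNB1, the mitotic cyclin B1, differed by 3.11 in CHLA9 and 1.82 in TC71. By these calls 22.4% of CHLA9 cells were in G1, 38.5% in S and 39.0% in G2M, and 13.1%, 48.2% and 38.7% of TC71 cells. The TC71 shares depended on the scoring: with all genes of the matrix G1 came to 24.7% and S to 30.5%, and over all scorings G1 ran from 10.8% to 26.5%, against 20.9% to 27.4% in CHLA9. The median UMIs per cell moved with phase, from 29196 in G1 to 40896 in G2M in CHLA9 and from 29048 to 37014 in TC71, and its part in the CPM differences was not tested.

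**Figure D3:**
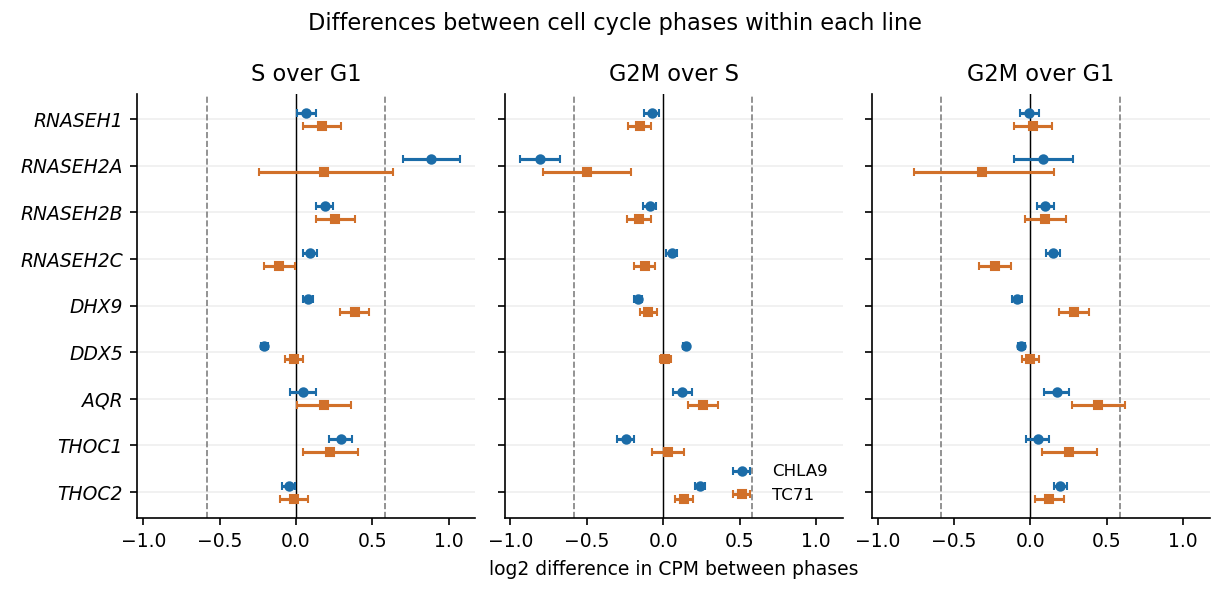
Log2 differences in CPM between phases for the 9 genes in CHLA9 (blue circles) and TC71 (orange squares); bars are exact 95% intervals from counting error and dashed lines mark 1.5-fold. RNASEH2A in CHLA9 is the only point past the dashed lines, at 0.89 for S over G1 and -0.80 for G2M over S.

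A finer course was taken by ranking the cells of each line around the cycle, by the angle between their S and G2M scores, and cutting the ranking into 8 bins of equal cell number. A bin number marks a rank within a line and not the same phase in both: bin 1 was all G1 in CHLA9 but 45.2% G1 in TC71. In CHLA9 RNASEH2A went from 10.5 CPM (9.11 to 12.1) in bin 1 through 14.8 and 16.3 to 20.6 (18.7 to 22.6) in bin 4, a bin that was 99.6% S cells, and then stood at 14.9, 8.97, 8.33 and 7.34 (6.11 to 8.74) in bins 5 to 8. The highest bin was 2.80-fold above the lowest, a ratio larger than that of 96.4% of all genes at 5 CPM or more, whose median was 1.35-fold. In TC71 the highest bin was the third, at 10.6 CPM (8.32 to 13.3), and the lowest the seventh, at 5.74 (4.20 to 7.66), a ratio of 1.85. With 6 or 12 bins the ratio in TC71 was 1.515 or 1.94, and the intervals of the highest and lowest bin overlapped. The courses in the 2 lines had a Pearson r of 0.77 over the 8 bins. The genes with the most similar course over both lines, among 5385 genes at 20 CPM or more, were HNRNPF (mean r 0.96), an RNA-binding protein, DDX11 (0.96), a helicase of sister chromatid cohesion, and CENPV (0.94). Those r values describe 8 points that share libraries and cells. The genes named as most similar, here and for the other members, were picked as the highest of 5385. A high r is thus partly a result of that choice, and a shared role or regulation was not tested.

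Counting of RNASEH2A may be affected by its neighbour on the same strand. In GENCODE 44, 94.1% of the exonic bases of its main transcript (RNASEH2A-201, 8 exons) are also exonic in THSD8 (ENSG00000284491), including all but 59 of the 313 bases of its last exon (chr19:12813328-12813640). THSD8 is listed in the matrices, with 3 UMIs in CHLA9 and 4 in TC71. Counting by unique gene leaves out reads that fit both genes, so the level of RNASEH2A may be understated against the other 8 genes, and its ratios to RNASEH2B and RNASEH2C are uncertain. How the annotation used for counting drew these exons is not given in the sources used here. Comparisons of RNASEH2A with itself between phases or lines share the same exons.

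The promoter of RNASEH2A is shown because this gene had the strongest tie to S phase in CHLA9. That of RNASEH2C is shown for a run of GGAA, the ETS motif core that the EWSR1-FLI1 fusion is known to bind when repeated. Both are RefSeq windows on GRCh38.p14, from 250 bases before to 50 after the transcript start, written 5′ to 3′ on the strand of the gene. Capitals mark CCAAT, read here on the other strand as ATTGG, in RNASEH2A (chr19:12806334-12806633, plus strand) and the GGAA run in RNASEH2C (chr11:65720749-65721048, minus strand).
RNASEH2A: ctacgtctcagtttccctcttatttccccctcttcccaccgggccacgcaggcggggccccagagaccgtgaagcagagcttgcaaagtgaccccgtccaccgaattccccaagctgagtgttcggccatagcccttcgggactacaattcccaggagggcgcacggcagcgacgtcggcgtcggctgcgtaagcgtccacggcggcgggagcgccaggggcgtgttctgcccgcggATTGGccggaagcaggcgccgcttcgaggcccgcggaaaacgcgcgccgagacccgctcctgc
RNASEH2C: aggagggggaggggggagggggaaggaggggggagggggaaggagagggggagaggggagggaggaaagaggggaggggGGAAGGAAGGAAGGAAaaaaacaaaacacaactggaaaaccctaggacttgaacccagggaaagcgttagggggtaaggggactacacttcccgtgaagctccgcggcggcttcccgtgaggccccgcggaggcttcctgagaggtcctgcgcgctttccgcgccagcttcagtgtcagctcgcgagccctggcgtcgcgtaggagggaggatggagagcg
The CCAAT letters began at -13 from the RNASEH2A start and were also present, on either strand, in windows of RNASEH2B, DHX9 and DDX5. Of 35116 RefSeq windows of this length, 34.6% hold them. GGAAGGAA is held by 3.67% of windows and at least 3 GGAA in a row by 0.0854%, and among the 9 genes RNASEH2C alone had either. Of the E2F-type letters TTTCCCGC, TTTGGCGC, TTTCGCGC and TTTGCCGC, found on either strand in 3.31% of windows, there was a match in THOC2 at -84 and in no other of the 12 windows of the 9 genes. A match is a stretch of letters and was not tested for binding.

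RNASEH2B (ENSG00000136104, chr13:50909747-51024120, plus strand), an accessory subunit, was at 135 CPM (133 to 137; 23628 UMIs) in CHLA9 and 102 (99.8 to 105; 5975 UMIs) in TC71, a log2 difference of 0.40. In CHLA9 RNASEH2B was highest in S, as RNASEH2A was, by a smaller difference. In TC71 the S over G1 difference of RNASEH2A was not settled, so the likeness could not be judged there. The courses of RNASEH2B in the 2 lines had an r of 0.14. Levels in G1, S and G2M were 125, 142 and 134 CPM in CHLA9 and 91.3, 109 and 97.7 CPM in TC71, with S apart from G1 and from G2M in both lines. S over G1 was 0.19 (0.13 to 0.24) in CHLA9 and 0.26 (0.13 to 0.39) in TC71. Over the bins RNASEH2B ranged 1.21-fold in CHLA9, with its highest level of 152 CPM in bin 4 beside that of RNASEH2A, and 1.17-fold in TC71, with its highest in bin 3. That was also the bin of RNASEH2A, but in TC71 the highest bins of both coincided in only 1 of 5 other binnings. The most similar courses were those of TFDP1 (mean r 0.90), the partner of E2F factors, PCLAF (0.88) and DUT (0.88), a dUTPase, both of which act in DNA replication.

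RNASEH2C (ENSG00000172922, chr11:65714005-65720818, minus strand), the other accessory subunit, was at 177 CPM (175 to 179; 30977 UMIs) in CHLA9 and 139.5 (136.5 to 142.5; 8139 UMIs) in TC71, a log2 difference of 0.34. The ratio of RNASEH2C to RNASEH2B was alike in the lines, at 1.31 (1.29 to 1.33) and 1.36 (1.32 to 1.41), with intervals that overlapped. Across the cycle RNASEH2C went in opposite directions. In CHLA9 it was at 165 CPM (161 to 170) in G1, 176 (173 to 179) in S and 183 (180 to 186) in G2M, and in TC71 at 154 (145 to 164), 143 (139 to 148) and 132 (127 to 136). G2M over G1 was 0.15 (0.10 to 0.19) in CHLA9 and -0.23 (-0.33 to -0.13) in TC71. Its highest bin was the fifth in CHLA9, at 189 CPM, and the first in TC71, at 157 CPM, and its courses had an r of -0.72 between the lines, the lowest of the 9 genes. The folds were small, 1.17 and 1.27 from lowest to highest bin, against a median gene of 1.35 and 1.40, and this contrast of the lines was not tested. PTS, an enzyme of tetrahydrobiopterin synthesis, had the most similar course (mean r 0.89).

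Among the helicases, DHX9 (ENSG00000135829, chr1:182839347-182887982, plus strand), a DExH-box helicase that unwinds RNA:DNA hybrids, was at 324 CPM (322 to 327; 56743 UMIs) in CHLA9 and 202 (198 to 205; 11764 UMIs) in TC71. Its log2 difference of 0.69 (1.61-fold) stayed past 1.5-fold within each phase, at 2.0-fold in G1, 1.62-fold in S and 1.54-fold in G2M. These folds leave in the shift of all genes towards CHLA9, a median log2 of 0.25, 0.23 and 0.17 in these phases. DHX9 was at 326, 344 and 307 CPM in G1, S and G2M of CHLA9 and at 163, 213 and 199 CPM in TC71. S was thus the highest phase in both lines, while G2M was below G1 in CHLA9 (log2 -0.09, -0.12 to -0.06) and above G1 in TC71 (0.29, 0.19 to 0.38). The highest bins were the fourth in CHLA9 at 351 CPM and the fifth in TC71 at 231.5 CPM, 1.20-fold and 1.37-fold above the lowest. NAP1L1, a histone chaperone, followed the DHX9 course most closely (mean r 0.96).

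DDX5 (ENSG00000108654, chr17:64498254-64508199, minus strand), a DEAD-box helicase of splicing and transcription, had 141040 UMIs in CHLA9 and 27816 in TC71 and the largest difference between the lines of the 9 genes, at a log2 of 0.76 (0.74 to 0.78). Its paralogue DDX17 differed likewise, with 357 CPM in CHLA9 and 225 in TC71 (log2 0.67). Within phases DDX5 was 1.81-fold higher in CHLA9 in G1, 1.58-fold in S and 1.73-fold in G2M, with the median shift of all genes left in. In CHLA9 it was lowest in S, at 749 CPM (743 to 756) against 865 (854 to 875) in G1 and 830.3 (824 to 837) in G2M. In the bins this low fell at the end of S and the entry to G2M, with 800.4 CPM in bin 3, 682 (672 to 693) in bin 4, 677 (667 to 687) in bin 5, where 78.8% of cells were in G2M, and 858.5 (847 to 869.7) in bin 6. In TC71 the 3 phases held 479, 474 and 479 CPM, and the 8 bins lay between 466 and 497 CPM with overlapping intervals of the highest and the lowest. Bin 4 of CHLA9, where DDX5 was low, was also the highest bin of RNASEH1, RNASEH2A, RNASEH2B, DHX9 and THOC1. No such low of DDX5 was detectable in TC71.

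AQR (ENSG00000021776, chr15:34851782-34969742, minus strand), the intron-binding helicase of the spliceosome also known as Aquarius, was at 56.5 CPM (55.4 to 57.6; 9889 UMIs) in CHLA9 and 60.9 (58.9 to 62.9; 3553 UMIs) in TC71, a log2 difference of -0.11. Among G1 cells the value was 0.08 (-0.09 to 0.26), so no difference between the lines was detectable there. AQR was the one helicase of the 3 with its highest level in G2M of both lines, with 52.9, 54.7 and 59.6 CPM in G1, S and G2M of CHLA9 and 50.1, 56.9 and 68.2 CPM in TC71. G2M over G1 was 0.17 (0.09 to 0.25) and 0.44 (0.27 to 0.62). Its highest bin was the fifth and its lowest the first in both lines, at 63.0 and 50.4 CPM in CHLA9 and 74.7 and 44.8 CPM in TC71, and its courses had the highest r between the lines of the 9 genes, 0.95. Genes with the most similar course were VIRMA (mean r 0.98), a subunit of the m6A methyltransferase complex, SAFB (0.97) and GFPT1 (0.97).

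THOC1 and THOC2 had different courses in CHLA9. THOC1 (ENSG00000079134, chr18:214520-268050, minus strand) was at 70.0 CPM (68.8 to 71.3; 12255 UMIs) in CHLA9 and 55.6 (53.7 to 57.5; 3243 UMIs) in TC71. In CHLA9 it was highest in S, at 78.0 CPM (75.9 to 80.2) against 63.7 (61.0 to 66.5) in G1 and 65.8 (64.0 to 67.7) in G2M. In TC71 S and G2M were alike, at 55.9 (53.2 to 58.8) and 57.2 (54.2 to 60.3) CPM, with G1 the lowest at 47.9 (42.7 to 53.6). Its highest bin was nevertheless the fourth in both lines, at 85.8 CPM for CHLA9 and 68.4 CPM for TC71, 1.43-fold and 1.44-fold above the lowest. EIF2AK2, the kinase PKR that senses double-stranded RNA, had the most similar course (mean r 0.95).

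THOC2 (ENSG00000125676, chrX:123600561-123733056, minus strand), the scaffold of the complex, was at 209.8 CPM (208 to 212; 36717 UMIs) in CHLA9 and 187.5 (184 to 191; 10940 UMIs) in TC71, the smallest gap among the 7 genes higher in CHLA9 and one that turned to a log2 difference of -0.05 under the median rescaling. It was highest in G2M in both lines, with 199.5, 193 and 228 CPM in G1, S and G2M of CHLA9 and 181, 179.7 and 198 CPM in TC71. G2M over S was 0.24 (0.21 to 0.28) and 0.14 (0.08 to 0.19). The highest bin of THOC2 was the seventh in CHLA9, at 235 CPM, and the eighth in TC71, at 197.5 CPM. That bin of TC71 held 57.4% G1 and 42.1% G2M cells. The ratio of THOC1 to THOC2 was 0.334 (0.327 to 0.341) in CHLA9 and 0.296 (0.285 to 0.308) in TC71. Over the bins the subunits ran apart in CHLA9 (r -0.60) and together in TC71 (r 0.74). The courses most similar to THOC2 were those of EBAG9 and PRRC2A (mean r 0.95 each).

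**Figure D4:**
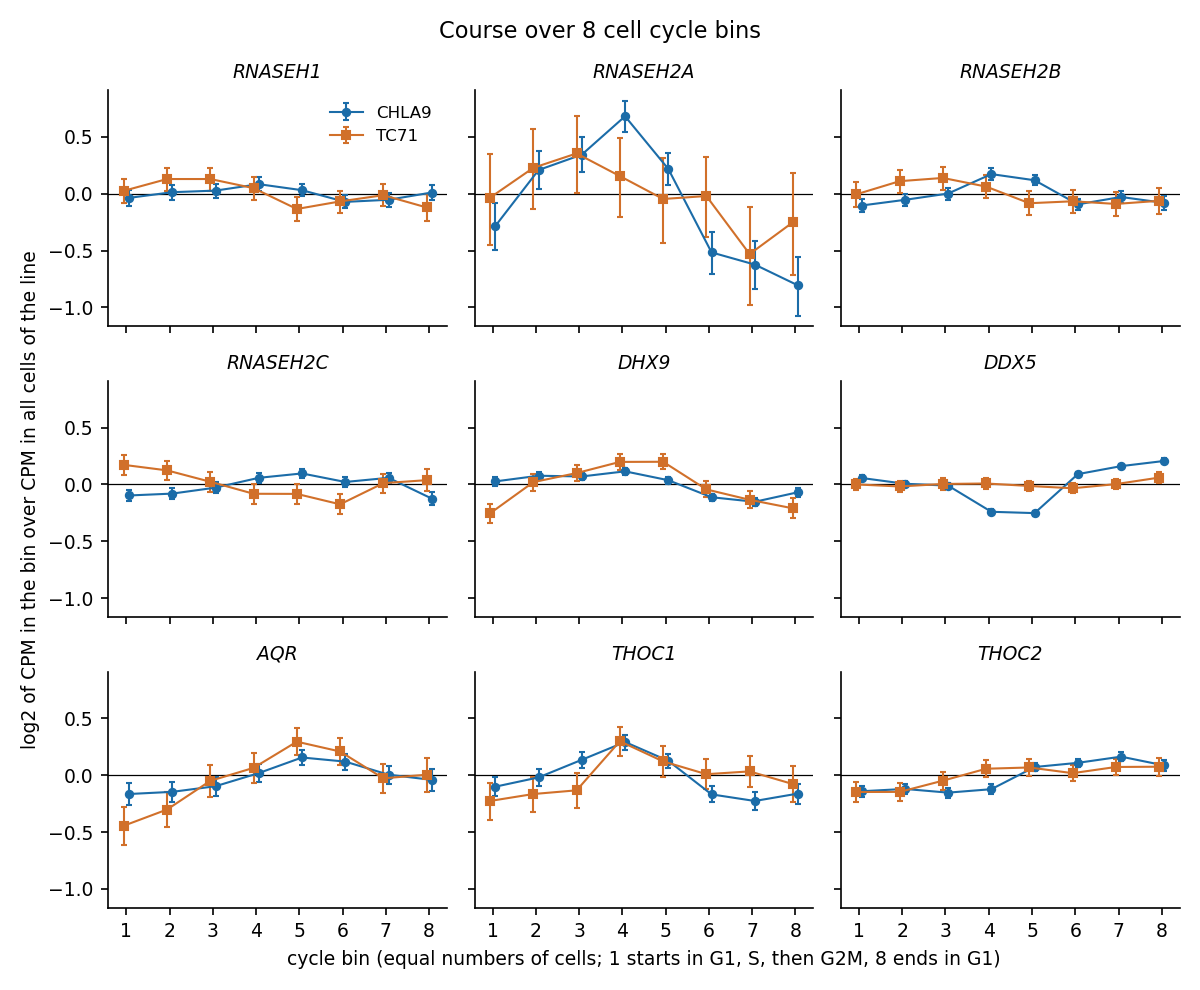
Course of each gene over 8 cycle bins of equal cell number, as the log2 of its CPM in the bin over its CPM in all cells of the line, on the same vertical scale; bars are exact 95% Poisson intervals, CHLA9 in blue circles and TC71 in orange squares. RNASEH2A moves most, THOC1 is highest in bin 4 and AQR in bin 5 in both lines, and DDX5 is low in bins 4 and 5 of CHLA9 and even in TC71.

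Detection in single cells followed level. With every cell thinned to 5000 UMIs, DDX5 had a UMI in 97.3% of CHLA9 cells and 88.7% of TC71 cells, DHX9 in 78.6% and 63.1%, and THOC2 in 62.3% and 58.6%. RNASEH2C was seen in 57.3% and 49.0%, RNASEH2B in 50.5% and 40.4%, and RNASEH1 in 38.1% and 41.5%. The lowest shares were those of THOC1, 29.1% and 24.99%, AQR, 23.7% and 24.3%, and RNASEH2A, 6.32% (5.63 to 7.07) and 4.45% (3.53 to 5.54). At full depth RNASEH2A had a UMI in 36.9% of CHLA9 cells and 23.7% of TC71 cells, and DDX5 in all kept cells of both. Every share was within 2.70 percentage points of that given by a Poisson count at the gene's level. By phase, RNASEH2A was seen in 4.93% of G1, 8.26% of S and 5.21% of G2M cells of CHLA9, and in 5.75% (13 of 226 cells), 5.52% (46 of 834) and 2.69% (18 of 669) in TC71. A library of one cell line holds no cell type that lacks these genes, so the background from free RNA could not be measured.

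**Figure D5:**
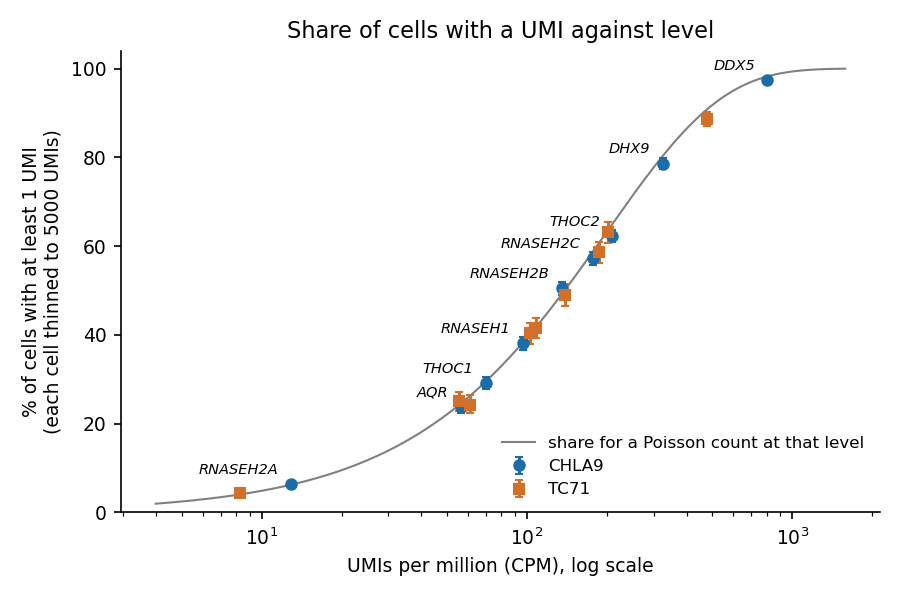
Percent of cells with at least 1 UMI, after each cell was thinned to 5000 UMIs, against the level of the gene in CPM (log axis), for CHLA9 (blue circles, labelled) and TC71 (orange squares). Bars are exact 95% Clopper-Pearson intervals and the grey line is the share for a Poisson count. The points lie within 2.70 percentage points of the line. It passes above the bars of THOC2, DHX9 and DDX5 in CHLA9 and of DDX5 in TC71.

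At 5000 UMIs per cell the ratio of variance to mean was between 0.97 and 1.11 for 8 of the 9 genes in both lines. Counting alone gives 1, and 200 genes of similar mean gave the comparison for each. At low means the ratio can hide variation. RNASEH2A in CHLA9, at a mean of 0.065 UMIs, had a ratio of 1.02 although it ranged 2.80-fold over the cycle bins. The ratio therefore does not show that these genes vary little between cells. DDX5 had the highest ratio, at 1.37 in CHLA9 and 1.32 in TC71, against medians of 1.14 and 1.13 for similar genes, and lay within their 5 to 95% range in both lines. RNASEH2B in TC71, at 0.97, was the one value outside that range, with 3% of similar genes lower. Over the bins DDX5 varied 1.37-fold in CHLA9 and 1.07-fold in TC71, and the part of the cycle in this spread was not tested. Doublets were not removed.

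Of 42 other genes known for R-loops, 39 reached 5 CPM and had a median log2 difference of 0.36 between the lines; 14 were higher in CHLA9 by at least 1.5-fold and 1 in TC71. These are 35.9% and 2.56% of the 39, beside 32.0% and 17.7% of all genes. After the median rescaling 9 were higher in CHLA9 and 5 in TC71, or 23.1% and 12.8%, beside 23.9% and 24.1% of all genes. THO and its export partners gave 4 of the 14 and the 1, with THOC3 at 44.9 CPM in CHLA9 and 18.8 in TC71, THOC6 at 47.2 and 21.6, and THOC5, the exception, at 20.0 and 38.1. These 3 were the furthest apart of 11 partners, and after the rescaling they alone of the 11 were past 1.5-fold. Of 5 topoisomerase genes, which relieve the supercoiling that favours R-loops, 3 were higher in CHLA9, TOP2A at 862 and 273 CPM, TOP3A at 48.4 and 11.2, and TOP3B. TDRD3, the scaffold that binds TOP3B, was higher too, and all 4 remained past 1.5-fold after the rescaling. Of 13 other helicases 3 were higher in CHLA9, DDX17, DDX23 and BLM; after the rescaling 0 were, and 3 were higher in TC71. Of 7 flap and structure nucleases 2 were, DNA2 and EXO1, and of 5 partners of AQR or of termination 1 was, ZNF830 at 28.8 and 15.2 CPM. The AQR partner XAB2 was at 24.0 and 20.4 CPM.

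For the cycle, the 5 of the 42 genes that set the phases (BLM, BRIP1, EXO1, FEN1 and TOP2A) were set aside. In S over G1, 2 of 33 at 5 CPM or more were higher in CHLA9, 6.06% beside 5.72% of all genes, and 2 of 34 in TC71, 5.88% beside 2.06%. DNA2 and TOP3A were higher in S than in G1 of CHLA9, by log2 differences of 1.15 and 0.70, beside 0.89 for RNASEH2A. PIF1 was higher in G2M than in S in both lines, by 4.57 and 3.52, and in TC71 was lower in S than in G1. In TC71 DNA2 and DDX39B were higher in S than in G1, by 0.80 and 0.59, and TOP3A was not, with 13.0 CPM in G1, 13.3 in S and 8.51 in G2M.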

How the data were processed

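Single-cell 3′ libraries of CHLA9 and TC71 (10x Chromium v3.1 chemistry) were analysed, 1 per line; other samples of the study were not analysed here. The authors counted UMIs per gene and barcode with Cell Ranger 3.1.0 on hg38, per the labels, and deposited raw counts without normalization. The annotation version is not given in the sources used here. The depth after filtering was 174975302 UMIs for CHLA9 and 58355173 for TC71. Of barcodes left out, 277 in CHLA9 and 5869 in TC71 had under 5000 UMIs.

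The members and gene lists were chosen with earlier results of these data known. All members are named. Of each list the text names up to 2 genes furthest apart between the lines, up to 2 highest in S over G1, those past 1.5-fold and partner subunits, and for each member the up to 3 genes with the most similar course; EPCAM and other markers check the label. MCM3, MCM7, DUT, TK1, CCNB1, PLK1 and PTTG1 check the phases. THSD8 was named after its values were seen.

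Levels are summed UMIs per 1000000 with exact 95% Poisson intervals, differences have exact conditional intervals, and shares exact Clopper-Pearson intervals, all for counting error only. A difference was counted at 1.5-fold or more, intervals apart, and 5 CPM or more in either group. Phases came from Seurat 5.3.0 CellCycleScoring in R 4.3.3, per library, on genes detected in at least 10 cells; cells were thinned with numpy 2.4.6 (seed 1), and intervals came from SciPy 1.17.1. Doublets were not called. The contrast step was tested on simulated Poisson counts, the model that the intervals assume. That checks the calculation only, since the simulation held no variation between cells or libraries. Coordinates are GENCODE 44, matched by identifier; promoters are RefSeq GRCh38.p14, with all 9 genes matched to 12 windows. Alternatives covered cell filters, scaling, scoring genes, seed, depth, bins and the CPM floor; 4 were added after seeing the data.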

Additional observations from a re-analysis of the deposited data

Results flagged for a closer look

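RNASEH2C and DHX9 were singled out because a difference between phases had opposite signs in the lines, beyond counting error in each. For RNASEH2C, G2M over G1 was 0.15 in CHLA9 and -0.23 in TC71 on the log2 scale, and G2M over S was 0.057 and -0.12. For DHX9, G2M over G1 was -0.089 in CHLA9 and 0.29 in TC71. Each of these 6 values kept its sign in all 11 alternatives, although DHX9 in TC71 came down to 0.08 in the lowest. The differences between the lines were not tested, since each line had 1 library. The G1 cells of TC71 on which the G1 contrasts rest were 226, and 54.9% of them were in G1 under all 4 scorings compared.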

How the results depend on the processing

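No paired analysis was possible because there is 1 library per line. The number of the 9 genes past 1.5-fold between the lines was 3 and stayed between 2 and 3 in 10 of 11 alternatives; with the median of ratios it was 0, because that scaling takes off the median difference of 0.21. DHX9 and DDX5 passed in those 10, and RNASEH2A also failed when scaled to UMIs outside mitochondrial and ribosomal protein genes, as a mean over cells, and within G1 or G2M cells. Between phases, RNASEH2A in CHLA9 passed in S over G1 and in G2M over S under all 11 alternatives, while in TC71 its S over G1 difference ran from -0.04 to 0.41, and no other member did in any; with at most 10% mitochondrial UMIs its G2M over S difference in TC71 passed too. For single genes, 57 of 99 line differences, 577 of 594 phase differences and 81 of 90 bin ranges stayed within the interval of the reported value, and no difference past 1.5-fold changed sign. Shares of cells all moved with depth. With 6 bins, 12 bins or the other scorings, 3 of which were added after seeing the data, the RNASEH2A range in CHLA9 lay between 2.26-fold and 2.88-fold. Bins from cells thinned to 5000 UMIs moved the highest TC71 bin of THOC1 from 4 to 7, of RNASEH2A from 3 to 1 and of DDX5 from 8 to 4. The highest bins of RNASEH1, DHX9 and THOC2 in TC71 and of RNASEH2C and AQR in CHLA9 moved to a neighbouring bin. The moves of RNASEH1, DHX9 and THOC2 also occurred with scores on all genes and with both libraries scored together. The 484 UMIs of RNASEH2A in TC71, 54 of them in G1, limit what can be seen of its timing there.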
